A study of Drosophila melanogaster with 10 samples.

Results

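Glutathione S-transferases (GSTs) and UDP-glycosyltransferases (UGTs) are the main conjugating enzymes of insect detoxification. The genes of both families in the Drosophila melanogaster larval brain are described here. A gene was a member where its symbol in the deposited table begins with Gst, a class letter and a number, or with Ugt and a number. Of 17895 gene rows, 70 were members, 35 Gst and 35 Ugt genes. A filter on low counts passed 28 Gst and 17 Ugt genes for testing, so counts and medians over these tested genes do not speak for the other 25 members.

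GSTs join the tripeptide glutathione to reactive compounds, lipid peroxidation products and insecticides, and some of them bind hormones or act as isomerases. UGTs transfer a sugar from a UDP-sugar to small lipophilic molecules such as plant compounds, hormones and odorants, which makes them water soluble. In insects both families are studied mostly in fat body, gut, Malpighian tubules and antennae. In the brain such enzymes are known from glia, which form the barrier between neurons and hemolymph.

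The tested animals were labelled vostok, a mutant of CG11504 by the series title, and the labels say nothing about the allele. The control animals were labelled only as control, and the names of their libraries begin with yw. Each group gave 4 bulk RNA-seq libraries from whole brains dissected from larvae of the third instar, with total RNA extracted in Trizol. The series has 10 samples, and its 2 vostok Micro-C libraries were not used here. The study was set up to ask how loss of the gene's function bears on chromatin organization and on transcription. The labels do not say that the repeats came from separate pools of animals, so p-values cover only library-to-library variation, which can be technical. In bulk tissue, fewer cells of a type and less RNA per cell cannot be told apart.

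The libraries held 57613848 to 81796126 estimated counts. Levels are given as CPM, counts relative to the library size after scaling between libraries. CPM is not corrected for transcript length, so levels are compared between libraries and not between genes. At this depth 3 counts correspond to 0.0371 to 0.0519 CPM in a library. RNA of CG11504 stood at 71.4 to 75.7 CPM in vostok libraries and 56.1 to 67.2 CPM in control libraries. The groups did not overlap, and the gene was called higher in vostok (log2 fold change, vostok over control, 0.29 ± 0.06, edgeR adjusted p = 0.0143). These values do not check the labels without knowledge of the allele. The gene y, mutated in yw strains, stood at 104 to 144 CPM in vostok libraries and 0.663 to 0.968 CPM in control libraries. Differences in strain background between the groups and the vostok mutation cannot be told apart in this design. Control libraries 1 and 3 had lower neuron marker totals and higher Malpighian tubule marker totals than control libraries 2 and 4, and counts of calls are given with and without them.

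Among the Gst genes, 3 rose and 16 fell in vostok brains, and 9 did not pass the test. The test was edgeR's quasi-likelihood F test with Benjamini-Hochberg adjustment over all 10749 tested genes, and a gene past an adjusted p of 0.05 is said to have risen or fallen. Over all tested genes the same test called 28.3%, with 12.1% higher and 16.2% lower in vostok. Among the Ugt genes, 3 rose, 8 fell and 6 did not pass. Ugt37A1 and Ugt37C1, which rose, passed the filter on low counts only through vostok libraries, and GstE5, which fell, only through control libraries. GstE4, which rose, and GstE7 and Ugt302K1, which fell, also needed the group where they were higher, since not every library of the other group reached the filter's level. With 1 library left out, 1 to 5 Gst genes rose (1 without vostok library 3, 5 without control library 2) and 5 to 9 Ugt genes fell (5 without vostok library 2 or 3 or control library 3). The median log2 fold change (vostok over control) was -0.61 over the tested Gst genes and -0.68 over the tested Ugt genes, beside -0.01 over all tested genes. The vostok and control libraries did not overlap for 17 Gst and 9 Ugt genes, and 33.2% of all tested genes had such separate groups (16.4% with vostok higher, 16.8% with vostok lower). Folds below are the fitted log2 fold changes on a linear scale, and log2 fold changes are given ± SE.

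**Figure D1:**
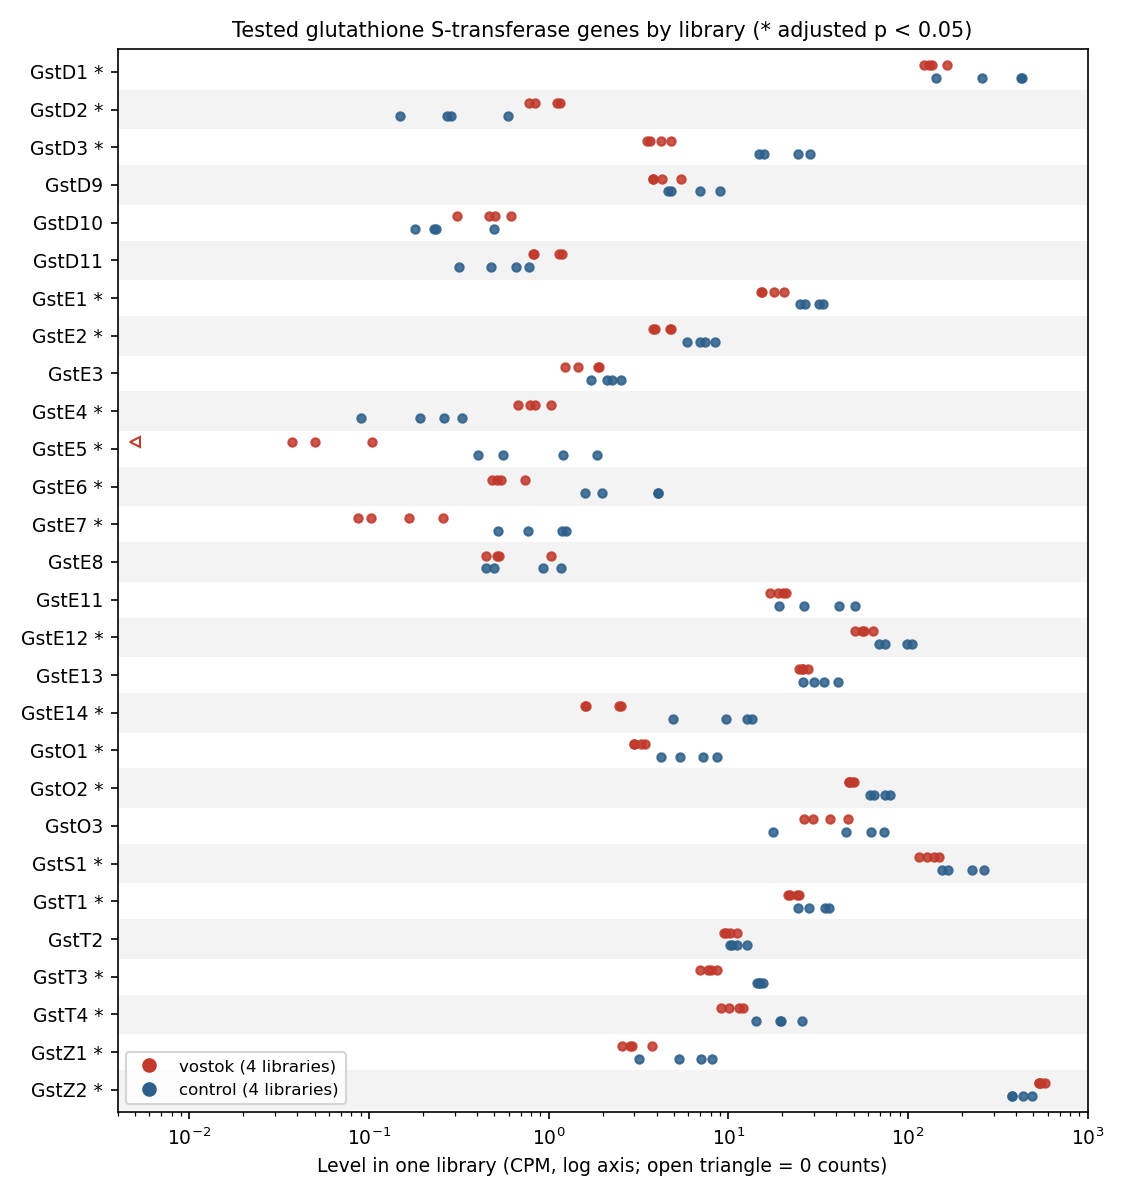
Each point is the level of one tested Gst gene in one library (CPM, log axis), with vostok libraries above control libraries in each row. Asterisks mark the 19 genes past the threshold. All vostok points sit left of all control points for 13 of the 28 genes and right of them for GstD2, GstD11, GstE4 and GstZ2.

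The delta class (GstD), an insect class whose genes respond to oxidative stress and insecticides, had 6 tested genes, of which 1 rose and 2 fell. GstD3 (FBgn0010039) stood at 3.68, 3.53, 4.25 and 4.81 CPM in vostok libraries and 28.4, 14.9, 24.5 and 15.9 CPM in control libraries. All 4 vostok libraries were far below the lowest control library. The means were 4.07 ± 0.584 CPM in vostok and 20.9 ± 6.62 CPM in control (SD, n = 4 each), 5.15-fold lower in vostok (log2 fold change -2.36 ± 0.24, edgeR adjusted p = 4.99e-04). GstD1 (FBgn0001149), a widely expressed enzyme used as a reporter of oxidative stress and able to break down DDT, was at 165, 132, 123 and 135 CPM in vostok libraries. In control libraries GstD1 was at 427, 143, 433 and 257 CPM. Control library 2 lay below vostok library 1, so the groups overlapped. The means of GstD1 were 139 ± 18.1 CPM in vostok and 315 ± 141 CPM in control (log2 fold change -1.18 ± 0.33, edgeR adjusted p = 0.0333). The GstD1 call held in 2 of 8 fits that each left out 1 library, without control 2 and without control 4, and was lost without any of the other 6. The highest adjusted p was 0.0888, without vostok library 3.

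GstD2, the direct neighbour of GstD3, went the other way. It falls outside the rule for named genes and was chosen after its values were seen. GstD2 was at 1.12, 0.842, 1.16 and 0.778 CPM in vostok libraries and 0.274, 0.285, 0.592 and 0.15 CPM in control libraries, with every vostok library above every control library. It averaged 0.975 ± 0.194 CPM in vostok and 0.325 ± 0.188 CPM in control (log2 fold change 1.58 ± 0.40, edgeR adjusted p = 0.0242). The call was lost when vostok library 1, 2 or 3 or control library 1 was left out (highest adjusted p = 0.0664, without vostok library 3). GstD9, GstD10 and GstD11 did not pass, with log2 fold changes of -0.55, 0.73 and 0.83 (edgeR adjusted p = 0.114, 0.158 and 0.0750). GstD11 had separate groups, at 0.816 to 1.19 CPM in vostok libraries and 0.317 to 0.782 CPM in control libraries.

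The epsilon class (GstE), the other insect-specific class, had 12 tested genes, of which 1 rose and 7 fell. The genes GstE5 (FBgn0063495), GstE6 (FBgn0063494) and GstE7 (FBgn0063493), which follow each other on the chromosome, had the widest differences of the class. GstE5 was at the floor of detection in vostok brains, with 12 counts over the 4 vostok libraries and 276 over the 4 control libraries. Its levels were 0.05, 0.0371, 0 and 0.104 CPM in vostok libraries and 1.86, 0.558, 1.20 and 0.404 CPM in control libraries. The vostok mean of 0.0477 CPM lies at about the level of 3 counts per library, 0.0458 CPM. The ratio of the summed counts, vostok over control, was 0.0456 with a 95% interval of 0.0233 to 0.0809 that covers counting error only. The fitted log2 fold change of GstE5 was -4.39 ± 0.81 (edgeR adjusted p = 0.00778).

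GstE6 was at 0.516, 0.483, 0.546 and 0.744 CPM in vostok libraries and 4.08, 1.98, 4.06 and 1.60 CPM in control libraries. The groups were separate, and control libraries 1 and 3 held about the same, higher level. GstE6 averaged 0.572 ± 0.117 CPM in vostok and 2.93 ± 1.32 CPM in control, 5.12-fold lower in vostok (log2 fold change -2.36 ± 0.37, edgeR adjusted p = 0.00342). GstE7, chosen after its values were seen, averaged 0.154 ± 0.0783 CPM in vostok and 0.933 ± 0.346 CPM in control (log2 fold change -2.61 ± 0.44, edgeR adjusted p = 0.00488). Its groups were separate as well. GstE8, the next gene, did not pass, at 0.45, 0.532, 1.03 and 0.519 CPM in vostok libraries and 0.936, 0.447, 1.17 and 0.494 CPM in control libraries. Its log2 fold change was -0.26 ± 0.41 (edgeR adjusted p = 0.632).

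Next to GstE5 stands GstE4 (FBgn0063496), the gene of the epsilon class that rose. Chosen after its values were seen, it was at 1.03, 0.792, 0.84 and 0.675 CPM in vostok libraries and 0.331, 0.261, 0.192 and 0.0899 CPM in control libraries. Every vostok library was above every control library. Means of 0.835 ± 0.149 CPM in vostok and 0.218 ± 0.103 CPM in control gave a 3.78-fold higher level in vostok (log2 fold change 1.92 ± 0.37, edgeR adjusted p = 0.00889). GstE1, known for insecticide metabolism, fell by less, to 15.2, 15.3, 20.5 and 18.1 CPM in vostok libraries, against 32.0, 25.2, 33.8 and 26.7 CPM in control libraries. The groups were separate, and the difference was 1.70-fold (log2 fold change -0.77 ± 0.13, edgeR adjusted p = 0.00564). GstE2 averaged 4.32 ± 0.525 CPM in vostok and 7.21 ± 1.04 CPM in control (log2 fold change -0.74 ± 0.15, edgeR adjusted p = 0.00954), and GstE3 did not pass (-0.41, edgeR adjusted p = 0.155).

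These epsilon genes lie in one cluster of 10 members on chromosome 2R, from 18396638 to 18409835 in Release 6, a span of 13.2 kb. Members at most 20 kb apart were counted as one cluster. Of its 8 tested genes 1 rose and 5 fell, and the end of GstE4 is 518 bp from the start of GstE5. The delta cluster of 11 members on chromosome 3R (12364776 to 12385624) had 6 tested genes, of which 1 rose and 2 fell, and 363 bp separate GstD2 from GstD3. Each cluster therefore held neighbours that moved in opposite directions. Genes of such clusters are similar in sequence. All 8 deposited values of every member were within 0.01 of a whole number, while 17.7% of all tested genes had a fractional value, and the sources used here do not say how reads that match several members were handled. Levels of close paralogs are uncertain to that extent.

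**Figure D2:**
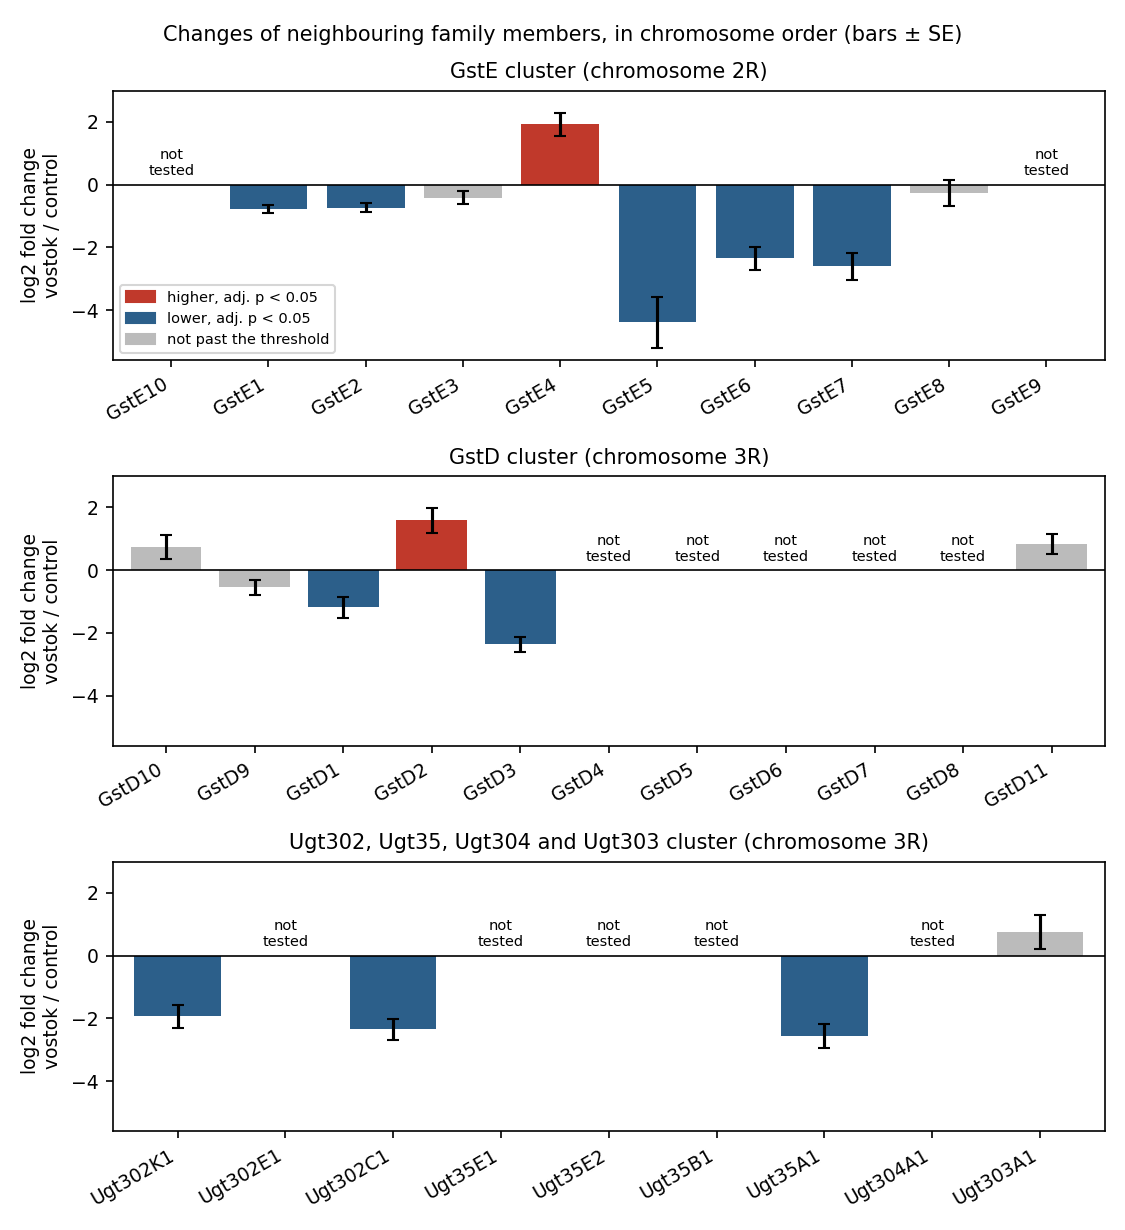
Bars show the log2 fold change (vostok over control, ± SE) of members in chromosome order for the GstE and GstD clusters and for the Ugt302 and Ugt35 cluster; members without a bar were not tested. GstE4 and GstD2 (red, higher in vostok) stand beside GstE5 and GstD3 (blue, lower in vostok).

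Outside the cluster, GstE14 (FBgn0033817; chromosome 2R, 13239729 to 13241013), named noppera-bo for its mutant embryos, is needed for ecdysone synthesis in the prothoracic gland. It was at 2.53, 1.60, 1.61 and 2.46 CPM in vostok libraries and 12.7, 4.90, 9.76 and 13.6 CPM in control libraries. All vostok libraries were below all control libraries, and control library 2 was the lowest control. GstE14 averaged 2.05 ± 0.516 CPM in vostok and 10.3 ± 3.93 CPM in control, 5.01-fold lower in vostok (log2 fold change -2.32 ± 0.34, edgeR adjusted p = 0.00293). Other ring gland genes did not share this direction. Of 4 such markers tested, 2 rose and 0 fell by edgeR (0 fell at an unadjusted p under 0.05 or with DESeq2): nvd, the first enzyme of ecdysone synthesis, averaged 64.4 ± 15 CPM in vostok and 21.5 ± 7.36 CPM in control (log2 fold change 1.58 ± 0.30, edgeR adjusted p = 0.00821), and the peptide hormone gene Akh also rose (1.19 ± 0.23, edgeR adjusted p = 0.00964). The summed level of the 4 markers was 459 to 884 CPM in vostok libraries and 198 to 498 CPM in control libraries, and its part in the GstE14 result was not tested.

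GstE12 (FBgn0027590) was at 64.0, 56.9, 50.8 and 55.8 CPM in vostok libraries and 106, 69.4, 99.0 and 74.1 CPM in control libraries. The groups were separate, and the difference was 1.53-fold (log2 fold change -0.61 ± 0.15, edgeR adjusted p = 0.0216). The call was lost when vostok library 2, 3 or 4 or control library 3 was left out, with a highest adjusted p of 0.0620 without vostok library 3. GstE11 and GstE13 did not pass, with log2 fold changes of -0.84 and -0.32 (edgeR adjusted p = 0.0581 and 0.0940).

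Of 8 tested genes of the omega, sigma and theta classes, which are shared with vertebrates, 6 fell and 0 rose by edgeR's test (0 rose at an unadjusted p under 0.05, with DESeq2 and with limma voom). Omega GSTs act as thiol transferases. GstO1 was at 3.00, 2.97, 3.42 and 3.29 CPM in vostok libraries and 8.63, 4.23, 7.26 and 5.42 CPM in control libraries, with separate groups. It was 2.01-fold lower in vostok (log2 fold change -1.01 ± 0.22, edgeR adjusted p = 0.0147). GstO2, which partly overlaps the omega gene sepia in the annotation, was at 46.8, 46.9, 49.1 and 50.4 CPM in vostok libraries and 79.6, 61.9, 74.5 and 64.5 CPM in control libraries. Its groups were separate too (log2 fold change -0.54 ± 0.09, edgeR adjusted p = 0.00376). GstO3 did not pass (-0.51 ± 0.40, edgeR adjusted p = 0.333), and its control libraries ran over a wide range, 17.7 to 73.4 CPM, around vostok libraries at 26.5 to 46.3 CPM.

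GstS1 (FBgn0010226), the sigma enzyme that conjugates the lipid peroxidation product 4-hydroxynonenal and is abundant in flight muscle, was at 149.8, 128, 116 and 139.5 CPM in vostok libraries. In control libraries it was at 264, 155, 228 and 166 CPM. Control libraries 2 and 4 lay just above the highest vostok library, so the groups did not overlap. The log2 fold change of GstS1 was -0.61 ± 0.18 (edgeR adjusted p = 0.0393), a call that held without control 2 and without control 4 and was lost without any of the other 6 libraries (highest adjusted p = 0.0989, without vostok library 3).

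Among the theta genes, GstT3 (FBgn0031117; chromosome X, 20467455 to 20469796) had the smallest p of the Gst genes. It was at 8.03, 7.71, 8.71 and 6.94 CPM in vostok libraries and 15.7, 14.5, 15.1 and 14.8 CPM in control libraries. All 4 control libraries agreed closely, and none came near a vostok library. The means were 7.85 ± 0.738 CPM in vostok and 15.01 ± 0.511 CPM in control, 1.91-fold lower in vostok (log2 fold change -0.94 ± 0.08, edgeR adjusted p = 2.53e-04). GstT4 was at 12.0, 11.5, 10.04 and 9.17 CPM in vostok libraries and 25.7, 14.3, 19.7 and 19.5 CPM in control libraries, again with separate groups (log2 fold change -0.89 ± 0.18, edgeR adjusted p = 0.00984). GstT1 fell by 0.42 ± 0.13 on the log2 scale with overlapping groups (edgeR adjusted p = 0.0471). This call held only without control library 2 and reached an adjusted p of 0.115 without control library 3. GstT2 did not pass (-0.14, edgeR adjusted p = 0.270).

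The zeta pair, relatives of the enzyme of tyrosine breakdown, moved apart. GstZ2 (FBgn0037697) was at 535, 534, 577 and 549.9 CPM in vostok libraries and 379, 488, 381 and 439 CPM in control libraries. All vostok libraries were above all control libraries, and control library 2 came nearest to them. It averaged 549 ± 20.1 CPM in vostok and 422 ± 52.2 CPM in control (log2 fold change 0.38 ± 0.09, edgeR adjusted p = 0.0202). GstZ1, whose end lies 268 bp from the start of GstZ2, averaged 3.02 ± 0.51 CPM in vostok and 5.90 ± 2.15 CPM in control (log2 fold change -0.97 ± 0.29, edgeR adjusted p = 0.0393), with overlapping groups. The GstZ2 call was lost without vostok library 2, 3 or 4 or control library 3 (highest adjusted p = 0.0686, without vostok library 3). The GstZ1 call held only without control library 2, with a highest adjusted p of 0.100 without vostok library 3.

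The 7 untested Gst genes were GstD4, GstD5, GstD6, GstD7, GstD8, GstE9 and GstE10, none above 0.544 CPM in any library. GstE10, at the edge of the epsilon cluster and overlapping GstE1 in the annotation, had 7, 10, 8 and 21 counts in vostok libraries and 0 in every control library. Against a floor of 3 counts per control library it was at least 4.16-fold higher in vostok. GstD8 had 41 counts over the vostok libraries and 2 over the control libraries, GstD6 had 39 in vostok and 4 in control, and GstD7 had 38 in vostok and 5 in control. GstD5 had 15 counts in vostok and 68 in control, GstD4 had 14 in vostok and 22 in control, and GstE9 had 27 in vostok and 26 in control. Without the filter on low counts, edgeR's adjusted p was 0.0115 for GstE10, 0.0140 for GstD8, 0.0153 for GstD6, 0.0550 for GstD5 and 0.0654 for GstD7.

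**Figure D3:**
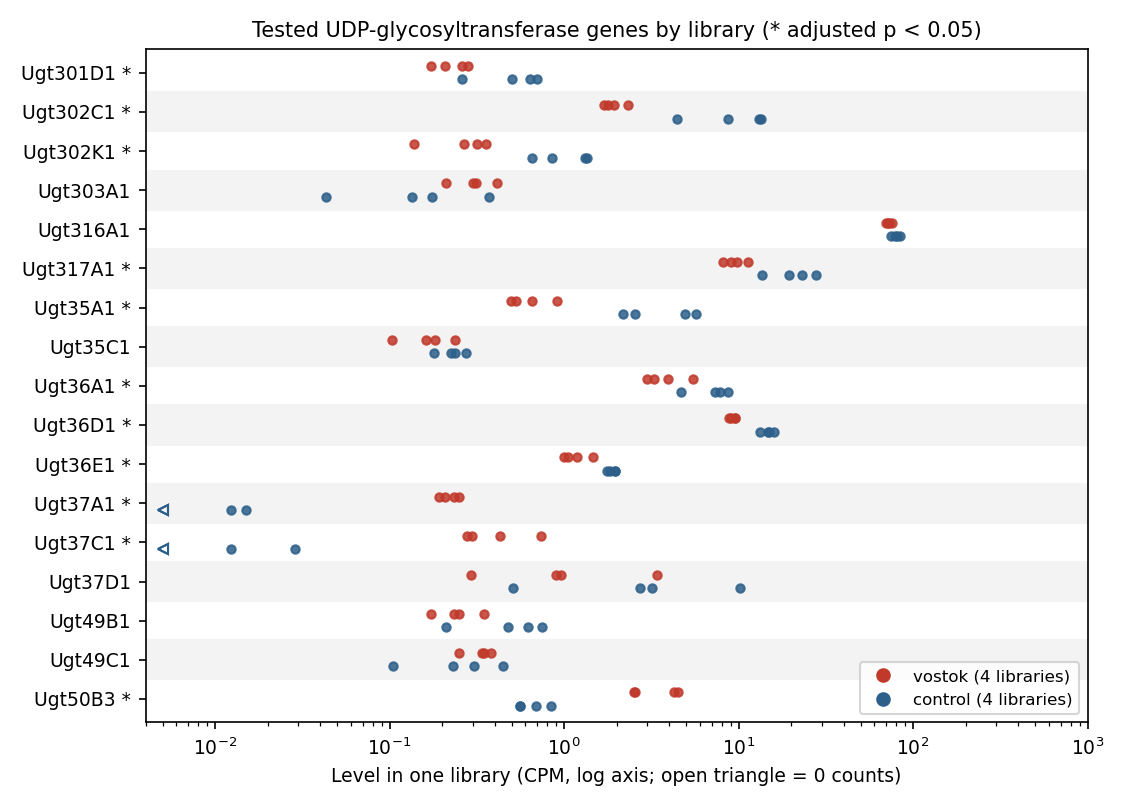
Each point is the level of one tested Ugt gene in one library (CPM, log axis), with vostok libraries above control libraries in each row and asterisks at the 11 genes past the threshold. Ugt37A1, Ugt37C1 and Ugt50B3 have all vostok points right of the control points, while 6 genes have all vostok points left of them.

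The Ugt genes that fell included 3 of the 4 tested genes in the cluster of 9 members on chromosome 3R (11151026 to 11177910, 26.9 kb), formerly named Ugt86D. Ugt302C1 (FBgn0040259) was at 2.32, 1.94, 1.70 and 1.78 CPM in vostok libraries and 13.1, 4.42, 13.4 and 8.69 CPM in control libraries. The groups were separate, with control library 2 the lowest control. It averaged 1.93 ± 0.274 CPM in vostok and 9.88 ± 4.22 CPM in control, 5.11-fold lower in vostok (log2 fold change -2.35 ± 0.34, edgeR adjusted p = 0.00280). Ugt35A1 (FBgn0026315) was at 0.533, 0.495, 0.914 and 0.657 CPM in vostok libraries and 5.70, 2.54, 4.96 and 2.19 CPM in control libraries. It was 5.91-fold lower in vostok with separate groups (log2 fold change -2.56 ± 0.38, edgeR adjusted p = 0.00294).

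Ugt302K1, at the other end of the cluster, was at 0.316, 0.359, 0.265 and 0.138 CPM in vostok libraries and 1.31, 0.657, 1.36 and 0.854 CPM in control libraries. Its groups were also separate (log2 fold change -1.94 ± 0.36, edgeR adjusted p = 0.00817). Ugt303A1 did not pass (0.74 ± 0.54, edgeR adjusted p = 0.306). Ugt35C1, known as Ugt86Dd from nicotine resistance in larvae, had 46 counts over the vostok libraries and 64 over the control libraries and did not pass (-0.41, edgeR adjusted p = 0.301).

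All 3 tested Ugt36 genes fell. Ugt36D1 (FBgn0032713), on chromosome 2L, was at 9.53, 9.48, 8.82 and 8.99 CPM in vostok libraries and 16.0, 13.2, 14.7 and 14.9 CPM in control libraries. Both groups were tight and well apart. The means were 9.21 ± 0.353 CPM in vostok and 14.7 ± 1.18 CPM in control, 1.60-fold lower in vostok (log2 fold change -0.68 ± 0.08, edgeR adjusted p = 7.44e-04). Its neighbour Ugt36E1, known from antennal responses to odorants, was at 0.999, 1.05, 1.18 and 1.47 CPM in vostok libraries and 1.77, 1.95, 1.82 and 1.96 CPM in control libraries. The groups were separate (log2 fold change -0.68 ± 0.18, edgeR adjusted p = 0.0272), and the call held without vostok 4, control 1 or control 2 and was lost without any of the other 5 libraries (highest adjusted p = 0.0876, without vostok library 2).

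Ugt36A1 is the gene Dorothy, whose enhancer is used to label blood-forming organs. It was at 5.51, 3.96, 3.26 and 2.98 CPM in vostok libraries and 7.84, 4.66, 8.74 and 7.37 CPM in control libraries. Control library 2 lay within the vostok range. The log2 fold change of Ugt36A1 was -0.86 ± 0.26 (edgeR adjusted p = 0.0393), and the call held without vostok 1 or control 2 and was lost without any of the other 6 libraries (highest adjusted p = 0.100, without vostok library 3).

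Ugt317A1 (FBgn0040091), on chromosome 2R, was at 11.3, 9.80, 9.10 and 8.11 CPM in vostok libraries and 23.1, 13.5, 27.7 and 19.5 CPM in control libraries. Its groups were separate, and it was 2.18-fold lower in vostok (log2 fold change -1.13 ± 0.21, edgeR adjusted p = 0.00870). Ugt301D1 averaged 0.231 ± 0.0501 CPM in vostok and 0.527 ± 0.196 CPM in control with overlapping groups (log2 fold change -1.18 ± 0.35, edgeR adjusted p = 0.0393), a call that held only without control library 2 (highest adjusted p = 0.0981, without control library 3). The levels of Ugt316A1 (FBgn0036842) lay close together and overlapped between the groups, at 75.6, 73.0, 72.1 and 70.2 CPM in vostok libraries and 80.6, 74.8, 84.1 and 78.7 CPM in control libraries. It did not pass the test (log2 fold change -0.13 ± 0.05, edgeR adjusted p = 0.0822).

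Of the 3 Ugt genes that rose, Ugt50B3 had the highest counts. Ugt50B3 (FBgn0050438; chromosome 2R, 5496674 to 5549543) is annotated over a long span that also overlaps the troponin gene TpnC4. It was at 4.50, 2.52, 2.57 and 4.26 CPM in vostok libraries and 0.692, 0.558, 0.56 and 0.839 CPM in control libraries. The lowest vostok library was well above the highest control library. The means were 3.46 ± 1.06 CPM in vostok and 0.662 ± 0.133 CPM in control, 5.21-fold higher in vostok (log2 fold change 2.38 ± 0.28, edgeR adjusted p = 8.72e-04).

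Ugt37C1 (FBgn0026754) and Ugt37A1 (FBgn0026756), chosen after their values were seen, were at or below the floor of 3 counts in every control library. Ugt37C1 was at 0.733, 0.297, 0.428 and 0.277 CPM in vostok libraries and 0.0288, 0.0124, 0 and 0 CPM in control libraries. That is 113 counts in vostok and 3 in control, a ratio of 39.5 with a 95% interval of 13.2 to 194 that covers counting error only (edgeR adjusted p = 0.00193). Ugt37A1 was at 0.25, 0.235, 0.192 and 0.208 CPM in vostok libraries and 0, 0.0124, 0 and 0.015 CPM in control libraries, or 59 counts in vostok and 2 in control. The ratio for Ugt37A1 was 30.9 (95% interval 8.19 to 261, edgeR adjusted p = 9.44e-04). The genes lie on different chromosome arms, 2R and 2L, each with no other member within 20 kb.

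Ugt37D1, the third tested gene of that class, did not pass, at 3.398, 0.904, 0.958 and 0.294 CPM in vostok libraries and 2.72, 0.509, 10.2 and 3.19 CPM in control libraries (log2 fold change -1.58, edgeR adjusted p = 0.223). Ugt49B1 and Ugt49C1, neighbours on chromosome 2R, had log2 fold changes of -1.03 and 0.27 and did not pass (edgeR adjusted p = 0.0891 and 0.611). The 18 untested Ugt genes stayed at or below 0.224 CPM in every library, and Ugt37E1 had 0 counts in all 8. They include the untested neighbours of Ugt35A1 and Ugt302C1 (Ugt302E1, Ugt304A1, Ugt35B1, Ugt35E1 and Ugt35E2), all 3 Ugt303B genes, Ugt305A1, Ugt307A1, Ugt35D1, Ugt36F1, Ugt37A2, Ugt37A3, Ugt37B1, Ugt37C2 and Ugt49B2.

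The summed level of all 35 Gst genes was 1153, 1074, 1089.8 and 1097 CPM in vostok libraries and 1619.9, 1115, 1554 and 1259.8 CPM in control libraries. Without GstZ2, which rose, the other 34 summed to 513 to 619 CPM in vostok libraries and 627 to 1241 CPM in control libraries. The Ugt genes summed to 117, 106, 103 and 101 CPM in vostok libraries and 155, 119, 169.9 and 139.8 CPM in control libraries. In both sums control libraries 1 and 3 were the highest and control library 2 was the lowest control. The control libraries spread more widely than the vostok libraries for 23 of 28 Gst genes (82.1%) and 12 of 17 Ugt genes (70.6%), beside 76.7% of all tested genes. The highest control library was 1 or 3 for 89.3% of the Gst genes, 58.8% of the Ugt genes and 55.1% of all tested genes.

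Markers of other cells moved between libraries as well. The summed level of 8 hemocyte (blood cell) markers was 834, 382, 425 and 183 CPM in vostok libraries and 1947, 297, 5922 and 1722 CPM in control libraries. All 8 hemocyte markers had a lower mean in vostok, 1 of them (vkg, a collagen chain) past edgeR's test and 7 with DESeq2, and control library 2 was within the vostok range. The 6 neuron markers summed to 2771, 2539, 2922 and 3016 CPM in vostok libraries and 1424, 2898, 1709 and 2474 CPM in control libraries, and they were present in every library of this tissue. By edgeR 0 of the 6 passed, 1 had an unadjusted p under 0.05 and 1 passed with DESeq2 (higher in vostok). Of 6 glia markers 3 fell (Gli, Mdr65 and moody, genes of the blood-brain barrier). The other 3, repo, alrm and Eaat1, did not pass and leaned the other way, with log2 fold changes of 0.05, 0.25 and 0.06. All 6 glia markers summed to 479 to 511 CPM in vostok libraries and 521 to 605 CPM in control libraries. Fat body markers summed to 356 to 676 CPM in vostok libraries and 276 to 643 CPM in control libraries, with 0 of 8 called by edgeR, 2 at an unadjusted p under 0.05 and 2 by DESeq2 (higher in vostok). Malpighian tubule markers summed to 9.39 to 15.6 CPM in vostok libraries and 15.2 to 39.9 CPM in control libraries. Of 3 tested, 1 fell by edgeR (Best2, log2 fold change -1.86 ± 0.32, edgeR adjusted p = 0.00604) and 0 rose. At an unadjusted p under 0.05, and likewise with DESeq2, 2 were lower. The marker salt leaned the other way (0.56) and did not pass, and the tubule marker Uro was near 0 and not tested. Gut markers summed to 8.24 to 20.4 CPM in vostok libraries and 1.68 to 2.79 CPM in control libraries, with the amylase genes Amy-p and Amy-d higher in vostok. Imaginal disc markers summed to 791 to 884 CPM in vostok libraries and 905 to 971 CPM in control libraries, with 1 of 6 lower (eyg). The part of glia, gut, tubule, disc and ring gland tissue in the Gst and Ugt results was not tested.

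**Figure D4:**
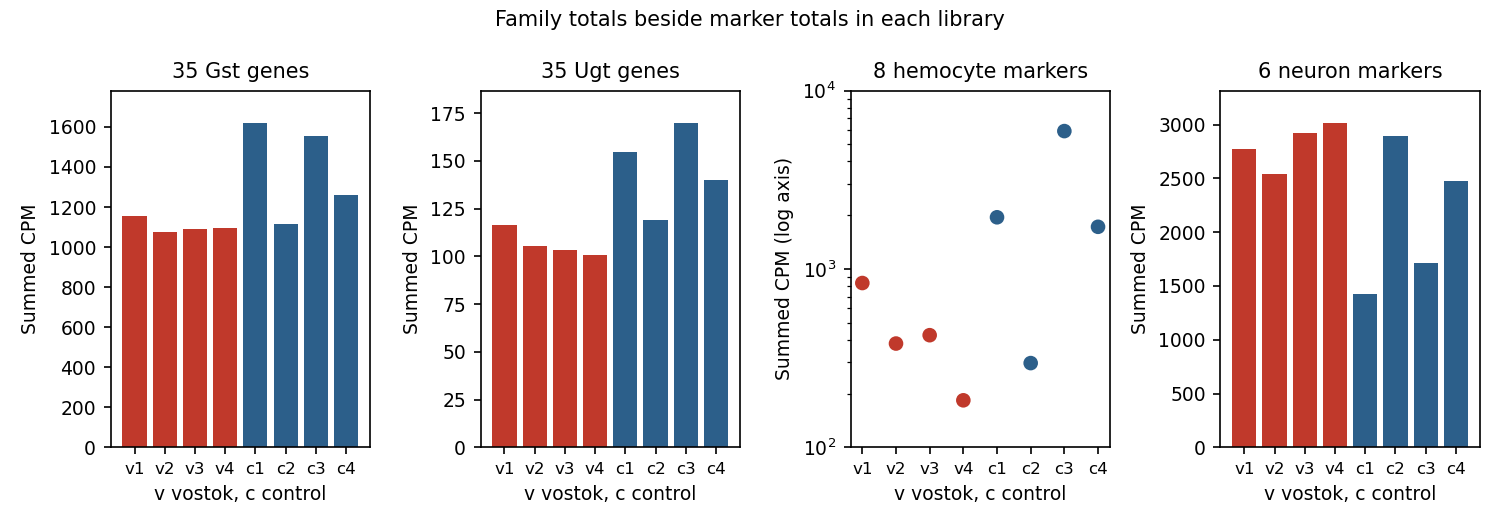
Bars show the summed CPM of the Gst, Ugt and neuron marker genes in each library, and points show that of the hemocyte markers (log axis); v1 to v4 are vostok and c1 to c4 control libraries. Control libraries 1 and 3 have the highest Gst and Ugt sums and the lowest neuron marker sums.

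When the mean of the hemocyte markers entered the fit as a covariate, 10 of the 19 Gst calls and 9 of the 11 Ugt calls were kept. All 8 hemocyte markers had a lower mean in vostok, so the covariate is partly tied to genotype. A call lost in that fit therefore cannot be read as an effect of hemocytes. Without control libraries 1 and 3, 12 of the 19 Gst calls and 7 of the 11 Ugt calls were kept. Where these libraries were the highest controls, as for GstD1, leaving them out lowers the control mean in advance. That fit also has fewer control libraries, so a call lost there does not show that the difference is absent. Over all tested genes the number of calls also dropped, from 3040 to 1096 with the covariate and to 1593 without those libraries. In the 8 fits that each left out 1 library, 12 Gst and 8 Ugt calls were kept throughout. Calls kept under all of these were those of GstE4 (higher) and GstD3, GstE5, GstE6, GstE7, GstE14, GstO2 and GstT3 (lower), and of Ugt37A1, Ugt37C1 and Ugt50B3 (higher) and Ugt35A1, Ugt36D1, Ugt302C1 and Ugt317A1 (lower). GstE5 passed the filter on low counts only through control libraries, and Ugt37A1 and Ugt37C1 only through vostok libraries. The direction of these genes was thus set by the filter, and their kept calls add no support. GstE4 and GstE7 also needed the group where they were higher to pass the filter, vostok for GstE4 and control for GstE7. Their kept calls are limited in the same way. GstD1 moved toward 0 and lost its call, at a log2 fold change of -0.49 with the hemocyte covariate and -0.53 without control libraries 1 and 3 (edgeR adjusted p = 0.373 and 0.194). GstO1 (-0.72 and -0.61, edgeR adjusted p = 0.150 and 0.0569) lost its call under both, GstT4 (-0.59, edgeR adjusted p = 0.0669) and GstE1 (-0.67, edgeR adjusted p = 0.0512) with the covariate, and GstE2 (-0.63, edgeR adjusted p = 0.0547) and Ugt302K1 (-1.47, edgeR adjusted p = 0.0554) without those libraries. GstS1, GstT1, GstZ1, GstZ2, Ugt301D1 and Ugt36A1 also lost their calls under both, GstE12 with the covariate and Ugt36E1 without those libraries. None of the 30 calls changed sign in any fit that was run.

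**Figure D5:**
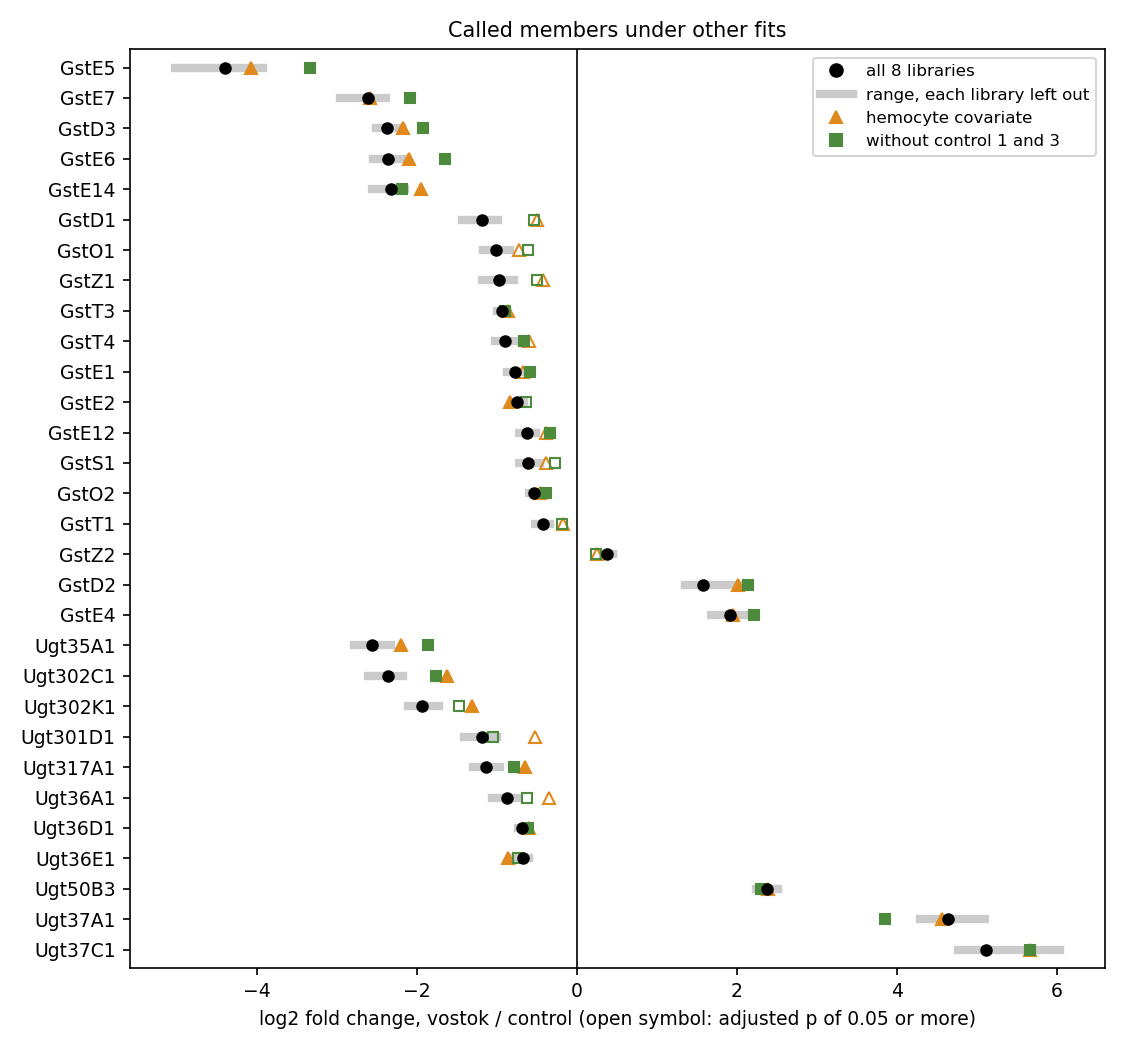
Each row is a Gst or Ugt gene past the threshold; the black point is its log2 fold change (vostok over control) with all 8 libraries, the grey bar the range when each library is left out in turn, the triangle the fit with the hemocyte covariate and the square the fit without control libraries 1 and 3. Open symbols have an adjusted p of 0.05 or more, and the grey bar does not show calls. GstD3, GstE14, GstT3, Ugt36D1 and Ugt50B3 are among the genes whose triangle and square are both filled.

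Of 5 tested genes of glutathione synthesis and recycling, 1 fell and 0 rose (1 at an unadjusted p under 0.05, 1 with DESeq2, 2 without control library 4). Trxr1 and Trxr2 were also listed here but matched no gene symbol in the data, so they were not examined. Gclc, the catalytic subunit of the rate-limiting ligase, averaged 16.5 ± 2.34 CPM in vostok and 24.9 ± 2.13 CPM in control (log2 fold change -0.60 ± 0.11, edgeR adjusted p = 0.00790). Gss1 and Gss2, the glutathione synthases, had higher means in vostok but did not pass. Gss1 averaged 61.3 ± 6.22 CPM in vostok and 26.4 ± 17.7 CPM in control with separate groups (1.21 ± 1.05, edgeR adjusted p = 0.382), and Gss2 averaged 61.0 ± 5.23 CPM in vostok and 39.4 ± 17.3 CPM in control (0.63 ± 0.27, edgeR adjusted p = 0.104). The 5 genes summed to 163 to 176 CPM in vostok libraries and 119 to 123 CPM in control libraries, without overlap. This difference lies in Gss1 and Gss2, which did not pass. Gclm averaged 28.6 CPM in vostok and 29.0 CPM in control, and Ggt-1 2.19 and 2.03 CPM. The control sum had an SD of only 2.10 CPM, so Gss1 and Gss2 varied in opposite directions among the control libraries. How reads were divided between Gss1 and Gss2 was not tested. Of 5 other glutathione-using enzymes 2 fell: PHGPx, a glutathione peroxidase that acts on lipid hydroperoxides (log2 fold change -0.44 ± 0.07, edgeR adjusted p = 0.00279), and Fdh, the glutathione-dependent formaldehyde dehydrogenase (-0.49 ± 0.10, edgeR adjusted p = 0.0107). With the hemocyte covariate PHGPx kept its call (-0.36, edgeR adjusted p = 0.0220), and Fdh lost it (-0.40, edgeR adjusted p = 0.0964). Mgstl, a microsomal GST-like gene of a separate superfamily, averaged 56.1 ± 1.71 CPM in vostok and 58.3 ± 3.44 CPM in control and did not pass (-0.06, edgeR adjusted p = 0.425).

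The CncC-Keap1 pathway and xenobiotic receptors are known to control many Gst and Ugt genes. Of the 8 genes of that list, 1 rose and 3 fell. The gene cnc, whose CncC product activates detoxification genes, averaged 247 ± 4.89 CPM in vostok and 208 ± 38 CPM in control and did not pass (log2 fold change 0.25 ± 0.12, edgeR adjusted p = 0.155). Keap1, which holds CncC in check, was slightly lower, at 15.7 ± 0.602 CPM in vostok and 18.1 ± 0.436 CPM in control (log2 fold change -0.20 ± 0.05, edgeR adjusted p = 0.0282). Its call held without control 1 or control 2 and was lost without any of the other 6 libraries (highest adjusted p = 0.0808). In this list 1 to 3 genes were lower with 1 library left out, 3 without control 1 or control 2 and 1 without any other. With the hemocyte covariate, and likewise without control libraries 1 and 3, the list had 0 higher and 1 lower call, and Keap1 lost its call under both (edgeR adjusted p = 0.194 and 0.0884). The gene ss, a bHLH-PAS relative of the vertebrate dioxin receptor, fell further, to 4.49 ± 0.392 CPM in vostok, against 15.02 ± 5.30 CPM in control (-1.74 ± 0.28, edgeR adjusted p = 0.00431).

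Of 11 thioredoxin and peroxide defence genes 2 rose and 6 fell. Trx1, Trx2, Prx1, Prx2, Prx4, Prx6a, Prx6b and Prx6c were also listed but matched no gene symbol, so they were not examined under those names. The 2 that rose, dhd and TrxT, are thioredoxins known from the female and male germline. Among those that fell, Sod3, the extracellular superoxide dismutase, had a log2 fold change of -1.35 ± 0.29 (edgeR adjusted p = 0.0147). Sod3 lost its call with the hemocyte covariate (-0.79, edgeR adjusted p = 0.124) and without control libraries 1 and 3 (-0.81, edgeR adjusted p = 0.0622). The 6 lower calls of the list became 0 with the covariate and 2 without those libraries. Leaving out 1 library gave 2 to 6 lower calls in this list, the fewest without vostok library 3 or 4. The UDP-sugar genes, which make the sugar donors of UGTs, had 4 of 9 lower and 0 higher by edgeR (0 at an unadjusted p under 0.05 and 0 with DESeq2). UGP, which makes UDP-glucose, averaged 36.5 ± 1.14 CPM in vostok and 52.4 ± 8.32 CPM in control (log2 fold change -0.52 ± 0.11, edgeR adjusted p = 0.0123). UGP lost its call with the hemocyte covariate (-0.36, edgeR adjusted p = 0.115). The 4 lower UDP-sugar calls became 0 with the covariate, 1 without control libraries 1 and 3, and 2 to 5 with 1 library left out, the most without control library 2.

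Of 10 efflux transporter genes, which export conjugates and drugs, 2 rose and 4 fell, and 1 or 2 rose with 1 library left out (1 except without vostok library 4 or control library 2). With the hemocyte covariate, and likewise without control libraries 1 and 3, 1 rose and 4 fell. Mdr65, the transporter of the glial blood-brain barrier, averaged 55.4 ± 3.44 CPM in vostok and 88.7 ± 6.24 CPM in control (log2 fold change -0.68 ± 0.07, edgeR adjusted p = 4.90e-04), and Mdr49 fell by 1.63 ± 0.23 on the log2 scale (edgeR adjusted p = 0.00222). Of 8 epoxide hydrolase, sulfotransferase and esterase genes 4 fell and 0 rose by edgeR (0 at an unadjusted p under 0.05, 1 with DESeq2), among them Jheh3, a juvenile hormone epoxide hydrolase (-1.32 ± 0.17, edgeR adjusted p = 0.00138), and the sulfotransferase gene St2 (-2.08 ± 0.44, edgeR adjusted p = 0.0139). St2 lost its call with the hemocyte covariate (-1.30, edgeR adjusted p = 0.0642) and without control libraries 1 and 3 (-1.37, edgeR adjusted p = 0.0652). The 4 lower calls became 1 under either of these fits. Leaving out 1 library gave 2 to 6 lower calls among these 8 genes, the most without control library 2. These shares stand beside the 12.1% higher and 16.2% lower calls over all tested genes, and no list was tested as a set. Lower calls over all tested genes went from 1741 to 440 with the hemocyte covariate and to 701 without control libraries 1 and 3.

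Over the 8 libraries, with each group's mean log2 CPM removed, the tested genes most like GstE5 were CG15141 (Pearson r = 0.98), Adck1 (0.958), IFT20 (0.956), CG15484 (0.944) and Nup107 (0.938). Those most like Ugt37C1 were the metallothionein gene MtnA (0.97), mEFG1 (0.968), CG8187 (0.938), lncRNA:CR44933 (0.91) and Lint-1 (0.907). GstE5 and Ugt37C1 had the largest fitted change among the members of their families that passed the filter. Both are at very low counts in one group and all genes share the same libraries, so these values describe the 8 libraries and carry no test.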

How the data were processed

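The deposited table holds the authors' estimated counts per gene, not normalized, with 1 column per RNA-seq library. Salmon is named in the title of the table. Per the submitters' processing notes BWA and dm6 were used, with no role stated, and per the labels' protocols the library kit was directional. The sources used here do not give salmon's version, the annotation or how strand was set, so overlapping genes are uncertain.

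Counts were rounded. Of 24278 rows, 17895 gene rows (99.3% to 99.5% of counts) entered filterByExpr (minimum count 10), which left 10749. The vostok and control libraries, 4 each, were compared with TMM scaling and edgeR 4.0.16's robust quasi-likelihood test (R 4.3.3). The model held genotype alone, and p-values were adjusted by Benjamini-Hochberg at 0.05. Positions are those of RefSeq Release 6, matched for 70 members. Reads carry no molecular identifiers, so the floor of 3 counts covers counting error only.

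Members and lists were chosen with earlier results of these data known. Values in every library are given per family for called genes with separate groups and a mean of at least 1 CPM in the higher group, up to 8 in each direction by fold change, and for the 5 most abundant members. Those of GstE8, Ugt37D1 and GstE10 are given outside this rule, as are those of genes marked as chosen after their values were seen. The closest 5 genes to the member with the largest change are named. On simulated counts for this comparison (10592 genes) the test found 43.9% of genes set to a 1.5-fold difference, 63% at 2-fold and 90% at 4-fold, with 3.6% false calls.

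Alternatives were RLE or no scaling factors, no filter or 1 CPM in 4 libraries, DESeq2 1.42.0, limma 3.58.1 voom, a replicate block, hemocyte or fat body covariates, an adjusted p below 0.01, and libraries left out. The Micro-C data were not analysed here.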

Additional observations from a re-analysis of the deposited data

Results flagged for a closer look

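GstE8 had 1 vostok library that stood apart from the other vostok libraries: vostok library 3 was at 1.03 CPM, and the other 3 were at 0.45 to 0.532 CPM. The control libraries of GstE8 were at 0.447 to 1.17 CPM, so that library lies within the control range. Of 94 groups of 4 libraries examined in this way 1 was flagged, and chance flags about 1 in 20.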

How the results depend on the processing

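Over all tested genes the call count of 3040 became 4619 with DESeq2, 1564 with a replicate block, 1096 with the hemocyte covariate, 1987 with the fat body covariate, 1057 at an adjusted p below 0.01, 1593 without control libraries 1 and 3, and 1521 to 5333 with 1 library left out (lowest without vostok library 2, highest without control library 2). The 3 higher Gst calls became 6 without a filter, 1 with the filter of 1 CPM, 8 with DESeq2, 1 at an adjusted p below 0.01, 5 without control libraries 1 and 3, and 1 to 5 with 1 library left out (1 without vostok library 3, 5 without control library 2). The 16 lower Gst calls became 8 with the hemocyte covariate, 10 at an adjusted p below 0.01 and 10 without control libraries 1 and 3, and 11 to 20 with 1 library left out. The 3 higher Ugt calls became 1 with the filter of 1 CPM, which tests fewer genes. The 8 lower Ugt calls became 5 with a replicate block, 5 at an adjusted p below 0.01, 4 without control libraries 1 and 3, and 5 to 9 with 1 library left out (5 without vostok library 2 or 3 or control library 3). Members that changed sign had not passed the test: GstE8 (0.32 with the hemocyte covariate, 0.43 without control libraries 1 and 3, 0.029 without control library 3, and -0.60 to 0.029 over all fits with 1 library left out), GstO3 (0.50 and 0.15 under the first pair), Ugt37D1 (0.83) and Ugt49C1 (-0.052), both with the hemocyte covariate. Apart from the smaller number of genes tested or samples used, the cause was not tested. The replicate numbers did not pair the libraries: same-numbered libraries correlated at 0.151, 0.00336, 0.0461 and -0.0286, and the block gave 2 higher and 11 lower Gst calls and 3 higher and 5 lower Ugt calls. Depth limits the members near 3 counts per library, among them GstE5, Ugt37A1, Ugt37C1 and all untested genes, for which a level of 0 does not show absence.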
